A study of Mus musculus with 16 samples.

Results

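The genes described are the G1 cyclins and their kinases: the D-type cyclins Ccnd1, Ccnd2 and Ccnd3, the E-type cyclins Ccne1 and Ccne2, the cyclin-dependent kinases Cdk2, Cdk4 and Cdk6, their substrate Rb1 and the phosphatase Cdc25a. They were chosen by gene symbol, and all 10 were found among the 40840 genes counted and passed the filter on low counts. Total mRNA was sequenced from p53-/-; Myc mouse hepatoblasts, a line of liver progenitor cells that has lost p53 and makes excess Myc. The study grew these cells in culture to stand for hepatocellular carcinoma (HCC). Cells of this 1 line received the multi-kinase inhibitor sorafenib or its vehicle DMSO for 48 hours or for 7 days, giving 4 groups of 4 replicates and 16 libraries. Every group therefore carried the same p53 loss and Myc overexpression, and no group without them was compared.

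D-type cyclins bind CDK4 or CDK6 when growth signals reach the cell, often through the RAS-RAF-ERK pathway, and these kinases begin to phosphorylate the retinoblastoma protein RB1. Unphosphorylated RB1 holds back the E2F transcription factors, and its phosphorylation lets them transcribe the genes of DNA replication and the E-type cyclins. Cyclin E then activates CDK2, from which CDC25A removes inhibitory phosphates, and the cell enters S phase. In liver, cyclin D1 is known for its part in hepatocyte proliferation and in HCC, and CDK4 is known as a target of MYC.

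Total counts per library ranged from 16586254 to 30828427, and the members held between 196 (Rb1) and 38783 (Ccnd2) counts in a library. Reads on Trp53 were present in every library, at 1268 to 4799 counts, and which part of the gene is deleted is not given in the sources used here, so a count of the whole gene does not check the knockout. Myc had 4226 to 17797 counts. Of the markers of hepatoblasts, Hnf4a was at 0 in all 16 libraries and Afp had at most 14 counts, while Dlk1 (3488 to 38122 counts), Krt19 and Sox9 were present. Alb, the hepatocyte marker, had at most 1 count and the 5 leukocyte markers together at most 0.181 CPM (counts scaled to the library total). Among fibroblast and stellate markers, Col1a1 (39863 to 81817 counts) and Acta2 (4682 to 77571) were abundant and Lrat was at 0.

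Sorafenib for 48 hours replicate 2 stood apart. From a place on chromosome 14 to the end of the X chromosome, its counts relative to the median of the other 3 replicates were 0.605-fold those before that place. The same search found steps between 0.991-fold and 1.05-fold in the other 15 libraries. Ccnd3, on chromosome 17, is the member that lies after the step. Of the other 9 members, 8 were highest of their group in this library, and Ccnd1 was not. The members' fold changes, sums and shares and the list counts at 48 hours are therefore also given without it.

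After 48 hours of sorafenib all 10 genes had changed, 5 upwards and 5 downwards, while 54.6% of the 20444 tested genes passed the same test (26.9% higher and 27.7% lower). Ccnd1, Ccnd2, Cdk6, Rb1 and Ccne2 rose, and Ccnd3, Ccne1, Cdk4, Cdc25a and Cdk2 fell. After 7 days 8 of the 10 had changed, against 56.8% of all tested genes (28.9% higher and 27.9% lower). Ccnd1, Ccnd2, Rb1 and Cdk6 were then higher and Cdc25a, Cdk4, Ccnd3 and Ccne1 lower, and Ccne2 and Cdk2 did not pass the test. The median log2 fold change of the 10 genes was 0.03 at 48 hours and -0.02 at 7 days, beside -0.05 and 0.02 over all tested genes. The sorafenib and DMSO libraries did not overlap for 10 of the 10 genes at 48 hours and for 9 at 7 days, beside 48% and 56.8% of all tested genes. Calls were made by edgeR's quasi-likelihood test on the counts at a Benjamini-Hochberg false discovery rate (FDR) under 0.05 over all tested genes, with no threshold on the fold change. Without sorafenib 48 hours replicate 2, the calls were 5 higher and 5 lower at 48 hours, and 4 higher and 5 lower at 7 days, beside 57.0% and 61.9% of all tested genes called in that fit.

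Ccnd1 (chr7:144483668-144493662, minus strand), the D-type cyclin most directly tied to growth factor signalling, had 3781, 3787, 3575 and 3776 normalized counts in the 4 DMSO libraries at 48 hours and 9571, 10106, 10170.5 and 9829.6 with sorafenib. Positions are those of GENCODE M39 on GRCm39. Normalized counts are a gene's counts scaled to a common library size by TMM factors. At 7 days it had 3193, 3147, 3149.8 and 3175 with DMSO and 14823, 14831, 15215 and 14069 with sorafenib. Every sorafenib library lay above every DMSO library, and the 7-day sorafenib libraries lay above those of 48 hours. The log2 fold change was 1.41 ± 0.0315 (SE), or 2.66-fold, at 48 hours (edgeR FDR 2.63e-18) and 2.22 ± 0.0322, or 4.65-fold, at 7 days (FDR 4.4e-21). The response was larger at 7 days by 0.81 ± 0.0438 on the log2 scale (FDR 1.49e-11). Leaving out sorafenib 48 hours replicate 2 gave 1.40 at 48 hours and a difference of 0.82.

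Ccnd2 (chr6:127102125-127129156, minus strand), a D-type cyclin with the same kinase partners, had 12531, 13297, 12975 and 13583 normalized counts with DMSO and 34739.9, 37896, 36063 and 36062 with sorafenib at 48 hours. At 7 days the values were 13162, 12878, 12726 and 13264 with DMSO and 33177, 31498, 31539.7 and 30561 with sorafenib. The groups were far apart at both times, and the sorafenib libraries of 7 days were all below those of 48 hours. The rise was 2.76-fold at 48 hours (log2 1.47 ± 0.0338, edgeR FDR 4.24e-18) and 2.44-fold at 7 days (log2 1.28 ± 0.0336, FDR 2.59e-17). In contrast to Ccnd1, its response was smaller at 7 days, by a log2 difference of -0.18 ± 0.0468 (FDR 0.00423), a difference that was -0.09 with FDR 0.218 when libraries were scaled by total counts only. The change at 48 hours was 1.44 and the difference -0.16 without sorafenib 48 hours replicate 2, both still called.

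Ccnd3 (chr17:47815767-47910624, plus strand), the remaining D-type cyclin, fell while its 2 paralogs rose. At 48 hours it had 4191, 4082, 4039.8 and 4179.8 normalized counts with DMSO and 3497, 2161, 3255 and 3462 with sorafenib, where the value of 2161 belongs to replicate 2. Leaving that library in or out, the groups did not overlap. It fell by a log2 fold change of -0.41 ± 0.0925 (edgeR FDR 0.000764), and -0.28 ± 0.0296 (FDR 1.19e-11) without replicate 2. At 7 days the values were 3047, 2965, 2986 and 2898 with DMSO and 2570.2, 2444, 2507 and 2596 with sorafenib, again without overlap. The log2 fold change at 7 days was -0.23 ± 0.0928 with FDR 0.0382, close to the threshold and over it in 14 of the 23 other fits, and the FDR was 2.89e-10 once sorafenib 48 hours replicate 2 was left out of the model. Ccnd3 shares 369 exon bases with Bysl on the other strand. Whether the counting used strand is not given in the sources used here, and if it did not, reads of these 2 genes in the shared bases cannot be told apart. Bysl passed the test at both times, higher at 48 hours (log2 0.34, edgeR FDR 0.000334, and 0.43 without replicate 2) and lower at 7 days (log2 -0.48, FDR 3.25e-06), and the part of its reads in the counts of Ccnd3 was not tested.

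**Figure D1:**
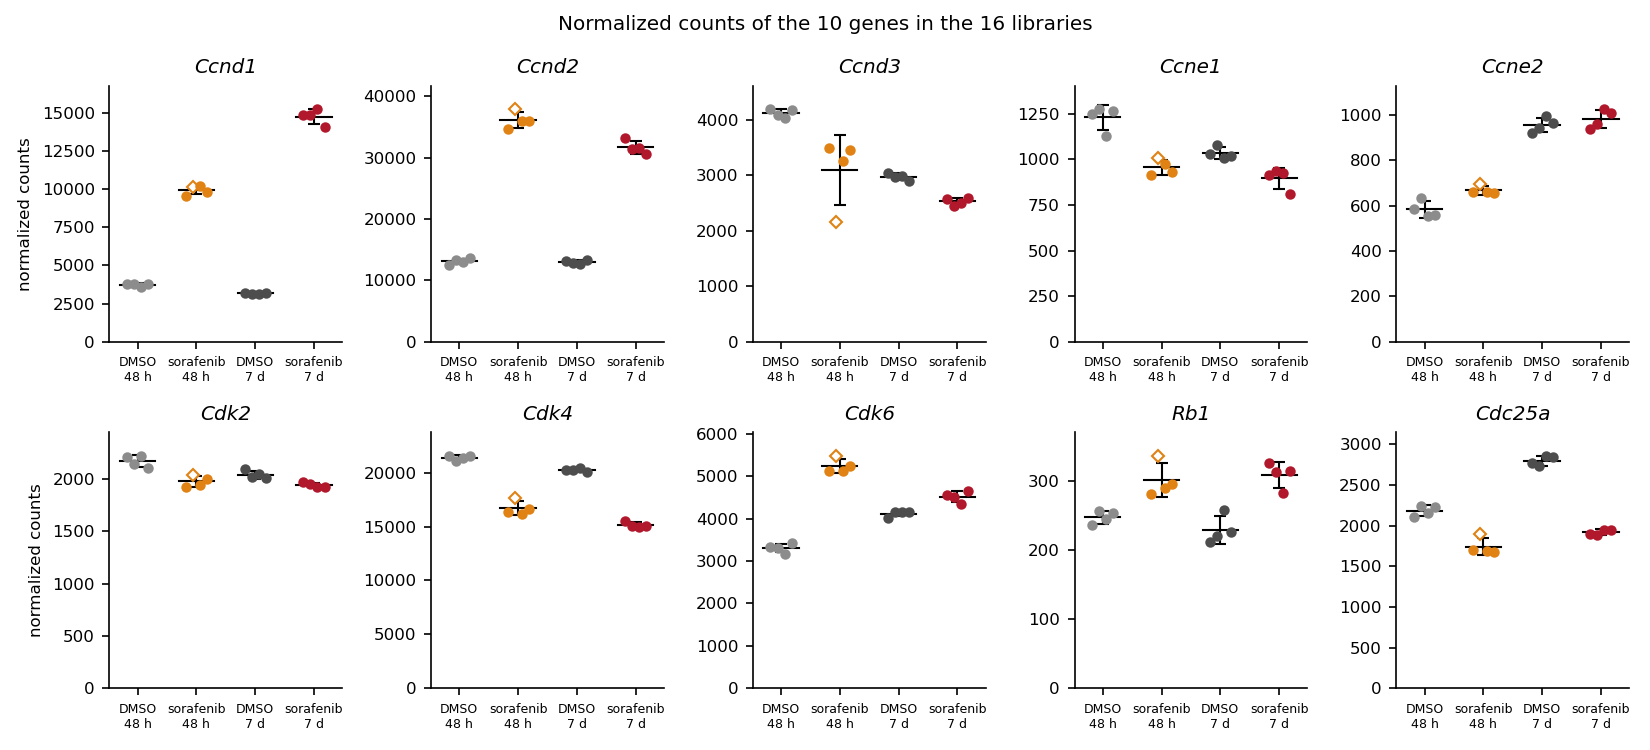
Normalized counts (vertical axis, from 0) of each of the 10 genes in DMSO and sorafenib libraries at 48 hours and 7 days. Points are the 4 libraries of a group, horizontal lines the mean and error bars the SD, and the open diamond is sorafenib 48 hours replicate 2, which is low for Ccnd3 and the highest of its group for 8 other genes. Ccnd1 and Ccnd2 rise the most with sorafenib.

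To place the genes on a common scale, normalized counts were divided by the exon length of the canonical transcript in kilobases. On this scale the D-type cyclins together rose from 5095 ± 93.9 (SD, n = 4) with DMSO to 9863 ± 153 with sorafenib at 48 hours, 1.94-fold, and from 4363 ± 49.4 to 10142 ± 252 at 7 days, 2.32-fold. Both differences had p = 0.0286 by an exact two-sided permutation test, the smallest that 4 against 4 libraries allow (adjusted p = 0.0357 after Benjamini-Hochberg adjustment over 20 tests). Without sorafenib 48 hours replicate 2 the sum at 48 hours was 9911 ± 147 (n = 3). The summed level with sorafenib did not pass the test between 48 hours and 7 days (log2 difference 0.04, exact permutation p = 0.114, adjusted p = 0.127). It passed when libraries were scaled by total counts only (log2 0.0748, exact permutation, adjusted p = 0.0336) and with the length of all annotated exons (log2 0.10, adjusted p = 0.0301).

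The make-up of the D-type cyclin transcripts changed with it. The share of Ccnd1 rose from 19.3% ± 0.383 to 26.5% ± 0.742 at 48 hours and from 19.1% ± 0.0948 to 38.3% ± 0.798 at 7 days. Both rises, and the rise between the 2 times with sorafenib, had exact permutation p = 0.0286 (adjusted p = 0.0357). The share with sorafenib at 48 hours was 26.2% ± 0.540 (n = 3) without replicate 2. The share with DMSO had exact permutation p = 0.486 between the times, and was called lower at 7 days when counts were not divided by length (-1.27 percentage points, exact permutation, adjusted p = 0.0318) or were divided by the length of all annotated exons (-1.81, adjusted p = 0.0301). Ccnd2 made up 40.6% with DMSO and 58.0% with sorafenib at 48 hours, and 47.1% and 49.4% at 7 days. The share of Ccnd3 was 40.1% with DMSO and 15.5% with sorafenib at 48 hours, and 33.8% and 12.4% at 7 days. With replicate 2 left out, the shares with sorafenib at 48 hours were 56.8% for Ccnd2 and 17.0% for Ccnd3.

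The order of the D-type cyclins turned on the transcript length used. Per kilobase of canonical transcript, Ccnd2 (2069 ± 71.3) and Ccnd3 (2043 ± 36.8) led with DMSO at 48 hours and their libraries overlapped. The canonical transcript of Ccnd3 has 2018 bases and all its annotated exons together 9245. Per kilobase of all annotated exons Ccnd3 was the lowest of the 3, at 446 ± 8.03 beside 780 ± 21.6 for Ccnd1 and 1392 ± 48.0 for Ccnd2, and its share was 17.0% ± 0.402 in place of 40.1%. On that length the share of Ccnd1 rose by 3.36 percentage points at 48 hours in place of 7.21. With sorafenib at 7 days the order was Ccnd2 (5007 ± 172), Ccnd1 (3882 ± 126) and Ccnd3 (1253 ± 33.8) with no overlap between neighbours, and it was Ccnd2 (3368 ± 116), Ccnd1 (3081 ± 100) and Ccnd3 (274 ± 7.38) with all annotated exons, again with no overlap.

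The promoters of Ccnd2 and Ccnd3 are shown because these 2 genes moved in opposite directions. Each is the 250 bases before the start of the canonical transcript in GRCm39, written 5′ to 3′ in the direction of the gene. Capitals mark matches, on either strand, to the E2F motifs TTTGGCGC, TTTCCCGC and TTTCGCGC, the E-box CACGTG, the AP-1 motif TGANTCA or the CRE motif TGACGTCA.
Ccnd2 promoter, chr6:127128024-127128273, minus strand: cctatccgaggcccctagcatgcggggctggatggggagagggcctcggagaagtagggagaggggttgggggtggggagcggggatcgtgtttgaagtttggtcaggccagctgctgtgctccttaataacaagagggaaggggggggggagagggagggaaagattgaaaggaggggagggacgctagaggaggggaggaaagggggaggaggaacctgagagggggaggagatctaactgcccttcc
Ccnd3 promoter, chr17:47904114-47904363, plus strand: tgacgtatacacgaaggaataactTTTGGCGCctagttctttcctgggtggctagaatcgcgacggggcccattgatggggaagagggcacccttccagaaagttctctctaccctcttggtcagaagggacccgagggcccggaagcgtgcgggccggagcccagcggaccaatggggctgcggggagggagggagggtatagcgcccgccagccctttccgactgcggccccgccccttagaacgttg
The Ccnd3 window held TTTGGCGC, which 0.643% of the 14609 windows of tested protein-coding genes held, and the Ccnd2 window held none of the 6 motifs. A window without a match says only that these letters are not in these 250 bases.

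Of the E-type cyclins, which bind CDK2, Ccne1 fell and Ccne2 did not. Ccne1 (chr7:37797404-37808264, minus strand) had 1248, 1274, 1129 and 1267 normalized counts with DMSO and 913, 1006, 973 and 931 with sorafenib at 48 hours. At 7 days it had 1030.4, 1079, 1009 and 1018 with DMSO and 916, 935, 923 and 812 with sorafenib. The sorafenib libraries lay below the DMSO libraries at each time. This was a log2 fold change of -0.36 ± 0.0513 (edgeR FDR 4.15e-06) at 48 hours, -0.39 without sorafenib replicate 2, and -0.21 ± 0.051 (FDR 0.00175) at 7 days. The difference between the 2 responses, 0.16, had an FDR of 0.0975 and passed the test without sorafenib 48 hours replicate 2 (0.18, FDR 0.018).

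Ccne2 (chr4:11190303-11204947, plus strand) had 586, 635, 555 and 559 normalized counts with DMSO and 659, 697, 659 and 658 with sorafenib at 48 hours, a log2 fold change of 0.19 ± 0.0504 (edgeR FDR 0.00298), and 0.17 (FDR 0.00504) without sorafenib replicate 2. This small rise kept its direction but not its call (FDR 0.0606) when libraries were scaled by total counts only. At 7 days the values were 920.1, 941, 995 and 966 with DMSO and 938, 958, 1025 and 1007 with sorafenib, and the groups overlapped (log2 0.04 ± 0.0463, FDR 0.498). Ccne2 was 1.64-fold higher at 7 days than at 48 hours with DMSO and 1.47-fold higher with sorafenib. Ccne2 shares 201 exon bases with Ints8 on the other strand. Ints8 was lower at 7 days (log2 -0.33, edgeR FDR 8.35e-07) and had a log2 fold change of -0.07 (FDR 0.155) at 48 hours, which was -0.09 and called without sorafenib 48 hours replicate 2 (FDR 0.0331). Whether its reads enter the counts of Ccne2 was not tested.

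Per kilobase the E-type cyclins together fell from 704 ± 37.2 to 588 ± 23.0 at 48 hours and from 681 ± 12.7 to 620 ± 25.3 at 7 days (SD, n = 4). Ccne1 made up 84.1% ± 0.728 of them with DMSO and 78.2% ± 0.465 with sorafenib at 48 hours, and 73.0% ± 1.11 and 69.5% ± 1.94 at 7 days. Each of these 4 differences between sorafenib and DMSO had exact permutation p = 0.0286 (adjusted p = 0.0357). With sorafenib replicate 2 left out, the sum at 48 hours was 578 ± 14.6 and the share of Ccne1 78.1% ± 0.555 (n = 3). The fall of the sum at 48 hours was not called when counts were not divided by length (log2 -0.16, adjusted p = 0.0602).

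**Figure D2:**
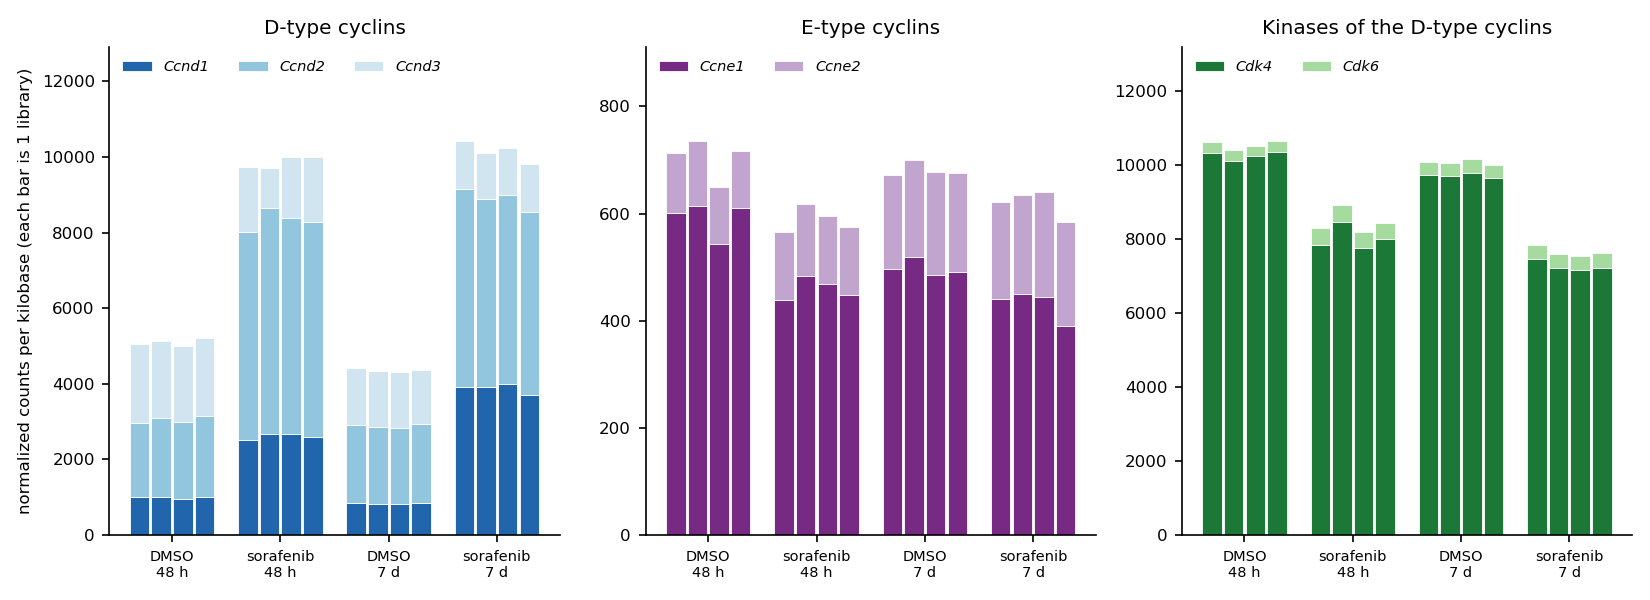
Normalized counts per kilobase of canonical transcript (vertical axes, from 0) of the D-type cyclins, the E-type cyclins and the kinases Cdk4 and Cdk6, stacked, with 1 bar for each of the 16 libraries. The D-type bars are about 1.94 times as high with sorafenib as with DMSO at 48 hours and 2.32 times at 7 days, while the Cdk4 part of the kinase bars is lower with sorafenib.

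Cdk4 and Cdk6, the alternative kinase partners of the D-type cyclins, moved apart. Cdk4 (chr10:126895180-126903789, plus strand) had 21508, 21080.4, 21340.5 and 21564 normalized counts with DMSO and 16349, 17621, 16154 and 16642 with sorafenib at 48 hours. At 7 days it had 20261, 20202, 20404 and 20086 with DMSO and 15532, 15006, 14926 and 15033 with sorafenib. The libraries of the 2 treatments were well separated, and the highest sorafenib value at 48 hours was that of replicate 2. The log2 fold change was -0.36 ± 0.0277 (edgeR FDR 8.34e-10) at 48 hours, -0.38 without replicate 2, and -0.42 ± 0.0277 (FDR 6.1e-11) at 7 days. Cdk4 shares 646 exon bases with Tspan31 on the other strand, whose counts did not pass the test at either time (log2 0.04 with FDR 0.395 and -0.01 with FDR 0.883).

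Cdk6 (chr5:3391485-3581008, plus strand) had 3341, 3301, 3175 and 3415 normalized counts with DMSO and 5126, 5483, 5124 and 5233 with sorafenib at 48 hours, a rise of 1.58-fold (log2 0.66 ± 0.0328, edgeR FDR 6.72e-13, and 0.64 without replicate 2). At 7 days the values were 4024, 4154, 4151 and 4149 with DMSO and 4549.9, 4519.6, 4352 and 4652 with sorafenib (log2 0.13 ± 0.0325, FDR 0.00157). All sorafenib libraries exceeded all DMSO libraries of their time. The response was smaller at 7 days by -0.53 ± 0.0462 on the log2 scale (FDR 1.7e-08), and by -0.51 without that library. Cdk6 moved in opposite directions with time: 7 days against 48 hours gave a log2 fold change of 0.32 ± 0.0327 with DMSO and -0.21 ± 0.0326 with sorafenib.

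Per kilobase Cdk4 was the highest of the 10 genes in every group. Its level was 10271 ± 104 with DMSO and 8021 ± 313 with sorafenib at 48 hours, and 9725 ± 63.5 and 7268 ± 132 at 7 days. Cdk6 stood at 284 ± 8.62 and 450 ± 14.5 at 48 hours and at 353 ± 5.45 and 388 ± 10.7 at 7 days, so the rise of Cdk6 was smaller in normalized counts per kilobase than the fall of Cdk4. Cdk4 made up 97.3% ± 0.0707 of the Cdk4 and Cdk6 transcripts with DMSO and 94.7% ± 0.04 with sorafenib at 48 hours, and 96.5% ± 0.0588 and 94.9% ± 0.133 at 7 days (exact permutation p = 0.0286 and adjusted p = 0.0357 at each time). The share with sorafenib at 48 hours was 94.7% ± 0.0307 (n = 3) without replicate 2. The summed D-type cyclins stood to the summed Cdk4 and Cdk6 transcripts at a ratio of 0.483 ± 0.009 with DMSO and 1.17 ± 0.0556 with sorafenib at 48 hours, and 0.433 ± 0.00635 and 1.32 ± 0.0279 at 7 days. Without replicate 2 the ratio with sorafenib at 48 hours was 1.19 ± 0.0228 (n = 3). With all libraries and the length of all annotated exons the ratio was 0.406 and 1.20 at 48 hours and 0.384 and 1.43 at 7 days. This ratio was added after the values were seen and was not tested.

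The promoters of these kinases are shown with the same marks.
Cdk4 promoter, chr10:126899125-126899374, plus strand: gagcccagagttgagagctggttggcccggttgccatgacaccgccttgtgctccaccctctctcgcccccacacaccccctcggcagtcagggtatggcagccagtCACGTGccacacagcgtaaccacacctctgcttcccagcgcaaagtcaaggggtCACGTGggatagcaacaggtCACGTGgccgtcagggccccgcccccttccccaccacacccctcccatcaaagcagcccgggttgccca
Cdk6 promoter, chr5:3393658-3393907, plus strand: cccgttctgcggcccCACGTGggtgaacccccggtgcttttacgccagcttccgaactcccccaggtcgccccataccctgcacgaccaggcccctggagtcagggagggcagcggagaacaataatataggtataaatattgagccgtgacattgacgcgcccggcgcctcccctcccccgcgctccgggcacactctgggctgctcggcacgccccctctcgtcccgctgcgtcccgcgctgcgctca
The E-box CACGTG, the sequence that MYC binds with its partner MAX, was in 7.40% of the 14609 windows. The Cdk4 window held 3 copies, a number reached by 11 windows (0.0753%), and the Cdk6 window held 1. E2F motifs were found in the windows of Ccnd3, Cdk2 and Rb1, while 2.48% of all windows held any of the 3. Myc itself fell, from 13202 ± 532 to 8974 ± 1742 normalized counts at 48 hours (log2 -0.56, edgeR FDR 2.57e-05, and -0.42 without sorafenib 48 hours replicate 2, since Myc lies on chromosome 15 after the step) and from 14822 ± 453 to 10426 ± 285 at 7 days (log2 -0.51, FDR 6.8e-05). Reads of the overexpressed and the endogenous Myc are not told apart in these counts. A match is a description of the sequence and not a binding site.

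Cdk2 (chr10:128533796-128540963, minus strand), the partner of the E-type cyclins, had the smallest change of the 10 genes at 48 hours. Its 4 DMSO libraries at 48 hours had 2212, 2139, 2222 and 2104 normalized counts and its sorafenib libraries 1925, 2041, 1944 and 1998. The groups did not overlap, and the fall was small (log2 -0.13 ± 0.032, edgeR FDR 0.00132, and -0.15 without replicate 2 of the sorafenib libraries). At 7 days it had 2091, 2019, 2044 and 2008 with DMSO and 1966, 1955, 1923 and 1926 with sorafenib. These groups did not overlap either, and the log2 fold change of -0.07 ± 0.0317 missed the threshold (FDR 0.0646) and passed it without sorafenib 48 hours replicate 2 (FDR 0.0309).

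Cdc25a (chr9:109704583-109723540, plus strand), the phosphatase that activates CDK2, fell at both times. It had 2105, 2237, 2157 and 2234 normalized counts with DMSO and 1699, 1898, 1692 and 1679 with sorafenib at 48 hours, with the highest sorafenib value in replicate 2. At 7 days it had 2764, 2730.0, 2857 and 2840.0 with DMSO and 1899.8, 1881, 1944 and 1949 with sorafenib, so that the gap had widened. Cdc25a changed by log2 -0.33 ± 0.0393 (edgeR FDR 4.91e-07), -0.37 without replicate 2, and -0.54 ± 0.0385 (FDR 1.8e-10). The difference between the responses was -0.22 ± 0.055 (FDR 0.00372), -0.17 without sorafenib 48 hours replicate 2, and lost its call when libraries were scaled by total counts only (FDR 0.138).

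Rb1 (chr14:73421113-73563507, minus strand), the substrate of these kinases, rose. Its libraries had 237, 258, 245 and 254 normalized counts with DMSO and 282, 337, 290.3 and 296 with sorafenib at 48 hours, where 337 belongs to replicate 2. At 7 days they had 212, 220.2, 259 and 227 with DMSO and 326, 314, 283 and 315 with sorafenib. There was no overlap at either time. Rb1 changed by log2 0.27 ± 0.0745 (edgeR FDR 0.0039) at 48 hours, 0.22 (FDR 0.0171) without replicate 2, and 0.43 ± 0.0726 (FDR 4.21e-05) at 7 days. Rb1 was the lowest of the 10 genes per kilobase in every group, at 49.5 ± 1.89 with DMSO at 48 hours, where its relatives Rbl1 and Rbl2, named here after their values were seen, stood at 225 ± 7.64 and 176 ± 1.02.

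**Figure D3:**
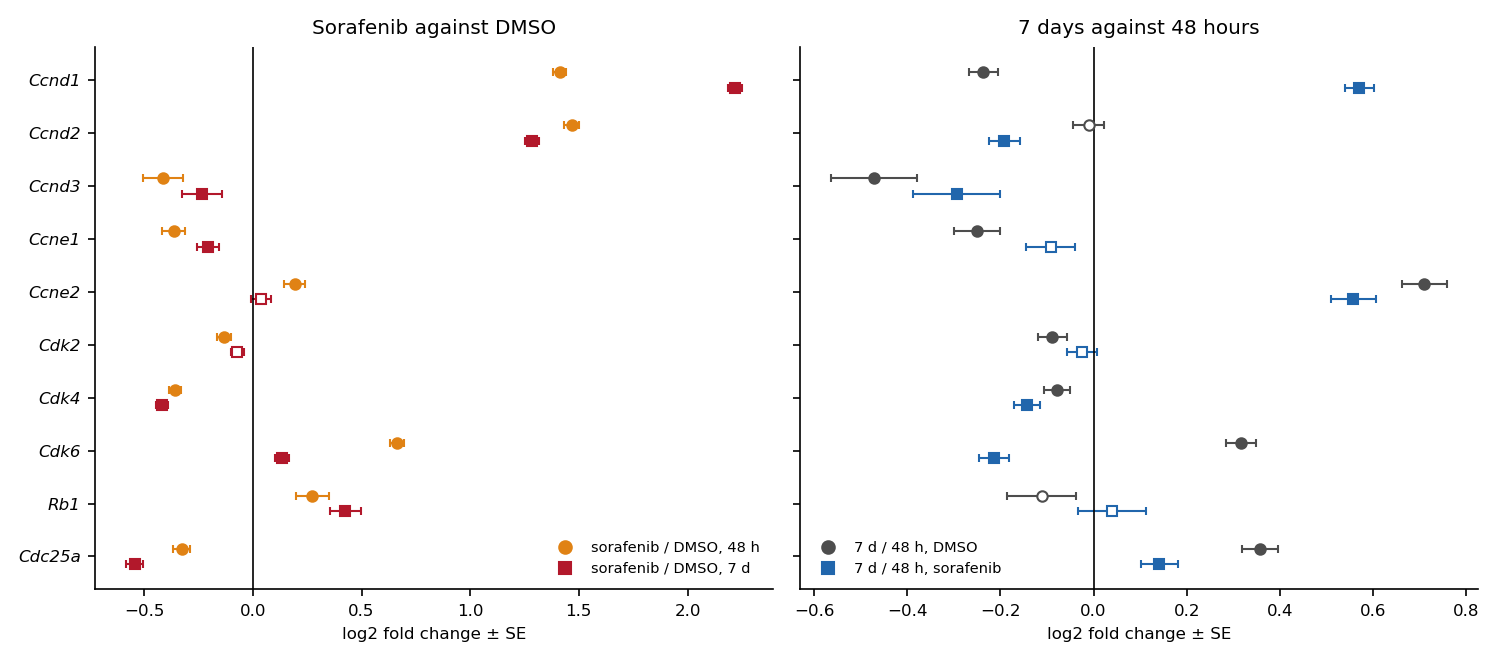
Log2 fold change of the 10 genes (horizontal axes) with its SE (error bars) for sorafenib against DMSO at 48 hours and 7 days (left) and for 7 days against 48 hours with DMSO and with sorafenib (right). Filled symbols passed an FDR of 0.05. Ccnd1 moves from 1.41 to 2.22 between the times, and Cdk6 from 0.66 to 0.13.

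The test of whether the response to sorafenib differed between the 2 times called 4 of the 10 genes, 1 with a positive and 3 with a negative difference, beside 36.8% of all tested genes (15.5% positive and 21.3% negative). Ccnd1 had the larger response at 7 days, and Ccnd2 and Cdk6 the smaller. Cdc25a stood further below DMSO at 7 days. Its mean normalized counts were higher at 7 days than at 48 hours with DMSO (2798 against 2183) and with sorafenib (1918 against 1742). For Ccnd3, Ccne1, Ccne2, Cdk2, Cdk4 and Rb1 the log2 differences lay between -0.15 and 0.18 and did not pass, which does not show that their responses were alike. Without sorafenib 48 hours replicate 2, 5 genes passed, Ccne1 among them, beside 43.0% of all tested genes in that fit.

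The levels of the members also changed between 48 hours and 7 days within a treatment. With DMSO 8 of 10 passed, beside 49.4% of all tested genes (23.9% higher and 25.5% lower), and 8 had groups without overlap, beside 50.8% of all tested genes. Ccne2 (log2 0.71), Cdc25a (0.36) and Cdk6 (0.32) were higher at 7 days, and Ccnd3 (-0.47), Ccne1 (-0.25), Ccnd1 (-0.24), Cdk2 (-0.09) and Cdk4 (-0.08) lower. With sorafenib 7 passed, beside 39.7% of all tested genes (17.5% higher and 22.3% lower), and 5 had groups without overlap, beside 35.8%. Ccnd1 (0.57), Ccne2 (0.56) and Cdc25a (0.14) were higher, and Ccnd3 (-0.29, and -0.43 without sorafenib 48 hours replicate 2), Cdk6 (-0.21), Ccnd2 (-0.19) and Cdk4 (-0.14) lower. The labels give no culture or library batch, so time in culture and any difference between the runs of the 2 times cannot be told apart. The comparisons of a treatment and of a time share groups, and their values are given side by side and not as separate support for each other.

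The rest of the pathway was described by lists, whose counts stand beside the 26.9% higher and 27.7% lower of all tested genes at 48 hours and 28.9% and 27.9% at 7 days. Of 25 G1/S genes known as E2F targets, 2 were higher and 19 lower at 48 hours (8% and 76.0%) with a median log2 fold change of -0.40, and 2 were higher and 17 lower at 7 days (8% and 68.0%) with a median of -0.23. Over all tested genes these medians were -0.05 and 0.02. The counts at 48 hours were 2 and 20 without sorafenib 48 hours replicate 2. The named examples were Uhrf1, which keeps DNA methylation through replication (-0.70 at 48 hours, and -0.55 without replicate 2 of that group), Mcm7 of the replicative helicase (-0.57 at 48 hours), Rrm2 of ribonucleotide reductase (-0.58 at 7 days) and Mcm5 (-0.54 at 7 days). The 2 higher genes at both times were Mcm2, also of that helicase (0.40 and 0.38), and Rrm1, also of ribonucleotide reductase (0.56 and 0.24). With sorafenib 18 of the 25 were higher at 7 days than at 48 hours and 2 lower, beside 17.5% and 22.3% of all tested genes, and 22 were higher and 2 lower without that library. With DMSO 10 were higher and 3 lower, beside 23.9% and 25.5%. Of the 7 S and M phase cyclins with Cdk1, 2 (28.6%) were lower at 48 hours, near the share of all genes, and 6 (85.7%) at 7 days, and the others did not pass the test. The count at 48 hours was also 2 without replicate 2. Ccnb3, among the 6, had only 3.77 ± 2.37 normalized counts with DMSO and 0.625 ± 0.784 with sorafenib at 7 days (edgeR FDR 0.0484). Ccna2 and Cdk1 are also among the 25 G1/S genes, so the 2 lists are not separate. Ccnf fell by 0.95 on the log2 scale at 48 hours (-0.82 without replicate 2) and by 1.14 at 7 days, and Ccnb2 by 0.57 and 0.46.

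Of the 12 pocket proteins and E2F factors, 3 were higher and 5 lower at 48 hours (25.0% and 41.7%, beside 26.9% and 27.7% of all tested genes) and 3 higher and 7 lower at 7 days (25.0% and 58.3%, beside 28.9% and 27.9%). Without sorafenib 48 hours replicate 2, 4 were higher and 5 lower at 48 hours. E2f2, an activator, fell by 0.90 at 48 hours and E2f8, a repressor that E2F itself induces, by 0.51 at 48 hours and 1.11 at 7 days (log2). E2f5, a repressor that works with the pocket proteins, fell by 0.81 at 7 days. The 3 genes called higher at 7 days were E2f1 (0.43), E2f6 (0.36) and Rbl2 (0.23). Of the 7 CDK inhibitors, 3 were higher and 2 lower at 48 hours, with that library or without it, and 4 higher and 3 lower at 7 days. In all, 5 and 7 of the 7 were called, beside 54.6% and 56.8% of all tested genes. Cdkn1c, which encodes p57, fell from 6357 ± 153 to 1607 ± 148 normalized counts at 48 hours (log2 -1.99, edgeR FDR 1.23e-16) and from 2001 ± 146 to 298 ± 12.1 at 7 days (log2 -2.75, FDR 6.12e-18). Cdkn2b, which encodes the CDK4 and CDK6 inhibitor p15, rose at 48 hours (log2 1.28) and less at 7 days (0.30). Cdkn2c, which encodes the related p18, fell at both times (log2 -0.30 at 48 hours and -0.46 at 7 days). Cdkn1a, the p53 target that encodes p21, was named after its values were seen: it rose from 37.8 ± 7.65 to 135 ± 37.5 normalized counts at 48 hours (log2 1.86, FDR 3.6e-08) and from 37.5 ± 7.21 to 179.9 ± 7.47 at 7 days (log2 2.26, FDR 6.69e-10). Its sorafenib libraries at 48 hours were spread widely, from 43.2 to 84.6 per kilobase. Of the 7 CDK inhibitors 1 lies after the step in replicate 2, and the change of Cdkn1a without that library is not given here.

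Of the 8 genes of the CDK-activating kinase, CDK phosphatases and WEE kinases, 3 were higher and 3 lower at 48 hours (37.5% each) and 4 higher and 2 lower at 7 days (50.0% and 25.0%), beside 26.9% and 27.7% and then 28.9% and 27.9% of all tested genes. The subunits of the CDK-activating kinase moved apart. Mnat1 (log2 0.62 at both times) and Ccnh (0.49 and 0.58) rose, and Cdk7, the catalytic subunit, fell (-0.14 with edgeR FDR 0.00179 and -0.49 with FDR 2.32e-10). Cdk7 was named after its values were seen. Of the 15 genes of cyclin D and cyclin E turnover, 6 were higher and 7 lower at 48 hours (40% and 46.7%) and 3 higher and 9 lower at 7 days (20% and 60.0%), against the same shares of all genes. Fbxo4, an F-box protein linked to cyclin D1 degradation, rose by 1.82 at 48 hours and 1.68 at 7 days (log2), and Usp2, a deubiquitinase linked to cyclin D1 stability, fell by 1.17 and 1.70. Of the 11 other cyclins and kinases, 7 were higher and 2 lower at 48 hours (63.6% and 18.2%) and 9 higher and 2 lower at 7 days (81.8% and 18.2%), with Cdk18 at 1.77 and 1.81 and Ccng2 at -2.21 and -1.33. Without sorafenib 48 hours replicate 2 the counts at 48 hours were 4 higher and 3 lower of the 8, 7 and 7 of the 15, and 8 and 2 of the 11. The list genes named for their largest changes kept their direction and call at 48 hours without it. Besides Uhrf1 and Ccnf, none of these moved by more than 0.0707 on the log2 scale. The list genes named after their values were seen were not in that check.

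**Figure D4:**
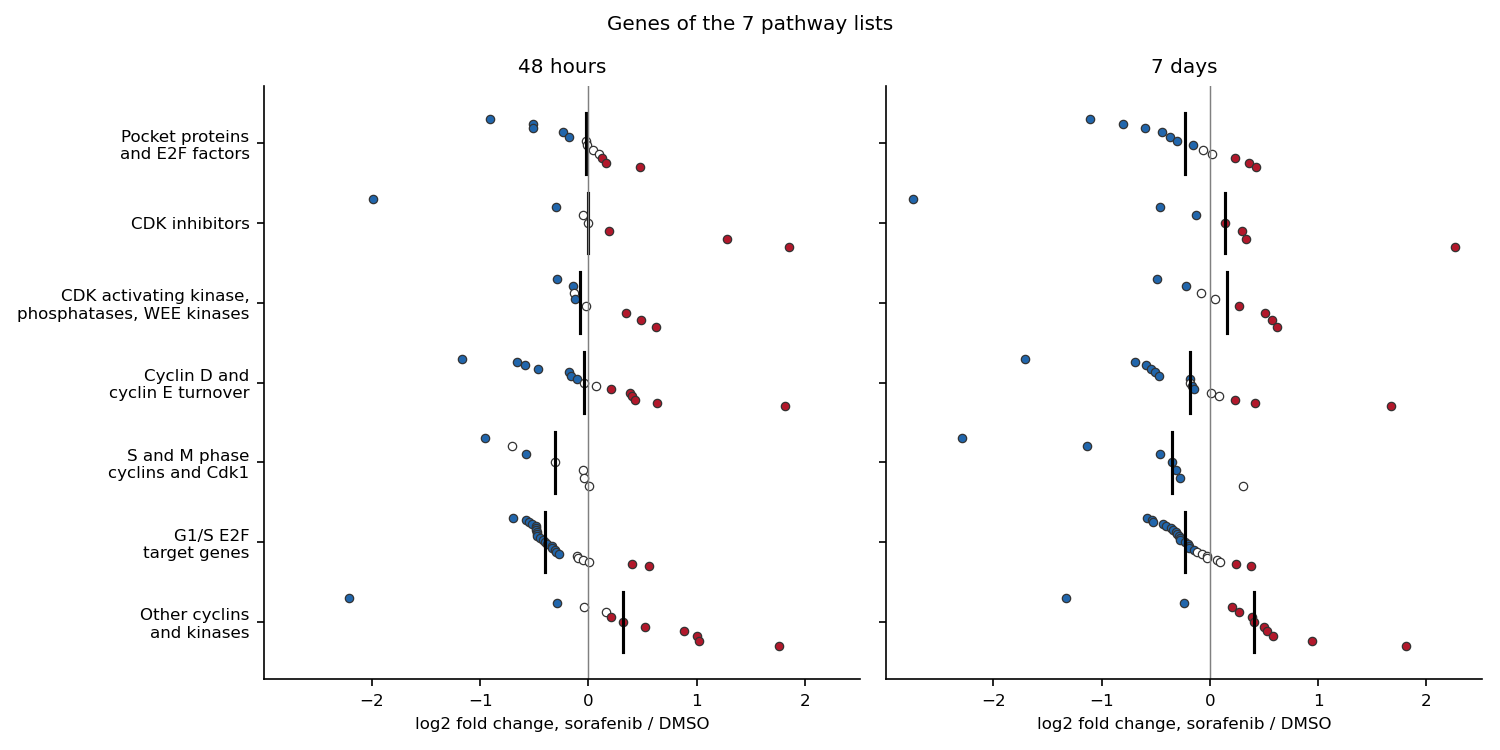
Log2 fold change under sorafenib (horizontal axes) of every tested gene of the 7 pathway lists at 48 hours and 7 days. Red and blue points were called higher and lower, open points were not called, and vertical bars are list medians, which for the G1/S E2F targets are -0.40 and -0.23.

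Summed levels of marker genes differed between the treatments as well. The 11 hepatoblast and liver progenitor markers summed to 1412 to 1508 CPM with DMSO and 501 to 594 with sorafenib at 48 hours. At 7 days the sums were 727 to 822 and 283 to 294. Dlk1 alone ran from 156 to 1365 CPM over the 16 libraries, and Krt19, the next highest, from 38.8 to 114. This sum therefore mainly follows Dlk1 and does not give the direction of each marker. The 6 fibroblast and stellate markers summed to 1883 to 2056 CPM with DMSO and 5322 to 6036 with sorafenib at 48 hours. At 7 days the sums were 2620 to 2688 and 4586 to 4766. Col1a1 (1605 to 3377 CPM) and Acta2 (181 to 2819) made up nearly all of this, and Pdgfrb, the next highest, reached 71.7. This sum does not give the direction of each marker either. The part of the markers in the changes of the cyclins and kinases was not tested. In RNA from whole cultures, fewer cells of a type or stage and less RNA per cell cannot be told apart, and mRNA gives no account of cyclin protein or kinase activity.

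Genes with the pattern most like 3 of the members were found by Pearson's r of log2 normalized counts over the 16 libraries among 10646 genes with a mean of at least 100. The libraries fall into 4 groups and share their scaling, so r is given as a description. For Ccnd1 they were Pla2g4a (r = 0.997), Samd5 (0.993) and Itpr2 (0.993). For Ccne1 they were Casp2 (0.962), Tspan9 (0.961) and Hmgn3 (0.953). For Cdk4 they were Pcyt2 (0.997), Socs3 (0.996) and Dbi (0.995).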

How the data were processed

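Libraries were made by the authors with a stranded mRNA kit from Illumina, and reads were aligned to GRCm39 with STAR 2.7.1a. The submitters' processing notes also name featureCounts 2.0.6 and DESeq2 1.40.2. The strand setting of the counting and the annotation are not given in the sources used here. The deposited values are raw counts per gene, with no normalization, for 40840 genes in 16 libraries of 16586254 to 30828427 counts. Samples were grouped by the treatment and time of their labels. The labels do not say whether replicates were separate cultures, so p-values measure only the spread between these samples, which may be technical.

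Genes with fewer than 10 counts in total (20396) were removed, as in the methods of the study, which left 20444. Counts were tested with edgeR 4.0.16 in R 4.3.3 (TMM, quasi-likelihood test, 1 model with 4 group coefficients and no block, Benjamini-Hochberg over all tested genes). The tests were 2 of sorafenib against DMSO, their interaction and 2 of time. SE is the absolute log2 fold change divided by the square root of F. Normalized counts are counts over the library size times the TMM factor, times the geometric mean of that product. Levels per kilobase used the canonical transcript of GENCODE M39 (GRCm39), which matched 32251 of the 40840 symbols. Shares and sums of families were compared by exact two-sided permutation tests (20 tests, sums on the log2 scale). Promoter windows came from the same genome. Some items are not reported here. The fit was tested on simulated data.

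The alternatives were DESeq2 1.42.0, its size factors, total counts only, no filter beyond 1 count, at least 10 counts in every library, only the 8 libraries compared, the replicate number as a block, each library left out in turn, and counts not divided by length. The length of all annotated exons of a gene was added after the data were seen. No 2 replicates agreed within sampling noise (lowest chi-square per gene 1.49). The 10 genes and all lists were chosen with earlier results of these data known. Named genes are the 10 members, in each list the 2 called genes with the largest change at 48 hours and at 7 days and a mean of at least 100, the 3 genes most like Ccnd1, Ccne1 and Cdk4, and Trp53 and Myc. Ccna2, Ccnb3, Cdk1, Cdk7, Cdkn1a, E2f1, E2f6, Mcm2, Rbl1, Rbl2 and Rrm1 were named after their values were seen, and the antisense partners for their overlap.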

Additional observations from a re-analysis of the deposited data

Results flagged for a closer look

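Within groups of 4 libraries, 60 sets of values were searched for a library far from the others, of which chance alone would give about 3 (1 in 20), and 6 were found. The number given is the gap to the nearest library over the whole range of the group. With sorafenib for 48 hours, replicate 2 was far above the others for Ccne2 (697 against 658 to 659 normalized counts, 0.952) and for Cdc25a (1898 against 1679 to 1699, 0.906). This is the library whose counts were lower after a place on chromosome 14. Ccnd1 was low in replicate 3 of DMSO at 48 hours (3575, 0.950), Cdk6 in replicate 1 of DMSO at 7 days (4024, 0.961) and Ccne1 in replicate 4 of sorafenib at 7 days (812, 0.844). The summed E-type cyclins per kilobase were high in replicate 2 of DMSO at 7 days (0.849).

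The response to sorafenib differed between 48 hours and 7 days for 4 genes by edgeR's test of the interaction. The response at 7 days minus that at 48 hours was 0.81 for Ccnd1, -0.18 for Ccnd2, -0.53 for Cdk6 and -0.22 for Cdc25a on the log2 scale. The groups of each gene separate by treatment at both times for all 4 genes, so the tests turn on the size of the change.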

How the results depend on the processing

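Across 23 other fits of the counts, the called fold changes of members kept their direction in 847 of 847 cases and their call in 819. The number of members called stayed within 1.5 times in every alternative. Of the lost calls, Ccnd3 at 7 days (log2 -0.23, edgeR FDR 0.0382) was lost with DESeq2 (adjusted p = 0.0510), with both other filters (adjusted p = 0.0783 and 0.0679) and without 1 library at a time for 11 of the 16 (each 7-day library and DMSO 48 hours replicates 1, 3 and 4), with FDR up to 0.0880. Leaving out sorafenib 48 hours replicate 2 gave FDR 2.89e-10. Ccnd3 with sorafenib between the times was lost with the 8 libraries alone (FDR 0.180) and without sorafenib 48 hours replicate 1, 3 or 4 (FDR 0.0727 to 0.113). With DMSO between the times, Cdk2 was lost in 5 fits, without DMSO 7 days replicate 2 or 4 (FDR 0.0638 and 0.0730), with DESeq2's size factors (FDR 0.0566), without a filter (FDR 0.0813) and with the replicate block (FDR 0.0550). Cdk4 was lost in 2, without DMSO 7 days replicate 4 (FDR 0.0518) and with DESeq2's size factors (FDR 0.0556). Cdk2 at 7 days gained a call in 5 of the 23 fits and the Ccne1 interaction in 6. Scaling by total counts only moved the median of all genes by at most 0.0936 (log2), in the interaction.

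The directions that turned were of changes that were not called. Ccnd2 with DMSO, 7 days against 48 hours (main value -0.01), was 0.0058 with DESeq2, 0.0060 with its size factors and 0.0044 without a filter. It lay between -0.0350 and 0.0018 when a library was left out. Cdk2 with sorafenib, 7 days against 48 hours (-0.02), was 0.0089 with DESeq2, 0.0078 with its size factors, 0.0101 with total counts only, 0.0277 with at least 10 counts in every library, 0.0140 with the 8 libraries alone and from -0.0309 to 0.0038 with a library left out. The Cdk4 interaction (-0.06) was 0.0292 with total counts only and 0.0021 with at least 10 counts in every library.

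Family values depended on the length used. With counts not divided by length, the Ccnd1 share with DMSO gained a call between the times (-1.27 percentage points), the D-type sum with sorafenib was -0.0074 between the times, and the E-type sum lost its call for sorafenib at 48 hours (-0.16) and gained calls between the times with DMSO (0.14, turned in direction) and with sorafenib (0.21, log2). With the length of all annotated exons the Ccnd1 share with DMSO (-1.81) and, with sorafenib between the times, the D-type sum (0.10) and the E-type sum (0.14) gained calls, and the E-type sum with DMSO turned to 0.0408 without one. The D-type sum with sorafenib also gained a call between the times with total counts only (0.0748). The cause was not tested beyond the lengths themselves. With 1 library left out of 4, the smallest exact p is 0.0571, so these values were compared with no test.

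Same-numbered replicates did not deviate together (correlations from -0.178 to 0.128), so the numbers were not taken as pairs. With the replicate number as a block, 10, 8, 4, 7 and 7 members passed in the 5 comparisons, and 1 call was lost (that of Cdk2 above). Counts of 196 to 387 for Rb1 set the widest error at 7 days after that of Ccnd3.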
